A study of Rattus norvegicus with 15 samples.

Results

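Slc43a3, Tmem117 and Slco3a1 are a pair of solute carriers and a membrane protein of rat hepatocytes, chosen by their measured difference between 1-naphthol and naphthalene, which they separated on 1 array slide. They are 3 of the 19784 genes tested. The array carries 4 probes for them, each spotted once: A_64_P022076 for Slc43a3 (NM_001107743), A_44_P653647 and A_44_P621708 for Tmem117 (both NM_001271239), and A_44_P496255 for Slco3a1 (NM_177481). Of these 4 probes, 3 passed the filter on dim probes, and the second Tmem117 probe did not. The choice rested on the 1-naphthol and naphthalene arrays, so for these 3 genes every value that involves those arrays is given as a description, without a test, and they were tested only among DMSO, 2,7-naphthalenediol and 1,5-naphthalenediol. Genes of other lists, which that choice did not use, were tested in the other comparisons too.

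Cryopreserved primary hepatocytes of male Wister rats were cultured for 24 h and then held for another 24 h with DMSO, the vehicle, or with 30 µM of naphthalene, of 1-naphthol, of 1,5-naphthalenediol or of 2,7-naphthalenediol. Each of the 5 groups had 3 arrays, from separate experiments per the series' design text, and every array held labelled RNA of 1 culture in 1 colour. All 15 were thus cultures of primary hepatocytes outside a liver and without its bile flow, and only 1 dose and 1 time were measured. Some markers of other cell types were also well above background, as given below. The compounds share the naphthalene ring system: naphthalene has no hydroxyl group, 1-naphthol has one, and the diols have a pair at different positions. Arrays lay on 2 slides. Slide 1 held all DMSO and 2,7-naphthalenediol arrays and 1,5-naphthalenediol replicates 1 and 2, and slide 2 held 1,5-naphthalenediol replicate 3 and all 1-naphthol and naphthalene arrays. 1-naphthol and naphthalene could therefore be compared within a slide. Their differences from DMSO and 2,7-naphthalenediol ran across slides, bridged by 1,5-naphthalenediol.

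SLC43A3 belongs to a small carrier family whose other members move large neutral amino acids, and it is known as an equilibrative carrier of purine nucleobases such as adenine, guanine and hypoxanthine. In cells it feeds the purine salvage pathway, in which phosphoribosyltransferases turn nucleobases back into nucleotides. SLCO3A1 is an organic anion transporting polypeptide (OATP), a family of sodium-independent carriers of amphipathic organic anions. Prostaglandins and thyroxine are among its substrates, while its liver-enriched relatives take up bile acids, bilirubin and drugs from blood. TMEM117 is a multi-pass membrane protein of poorly defined function that has been studied in cultured cells under stress of the endoplasmic reticulum.

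The promoter of Slco3a1 is shown because it was the one member with an entry in the RefSeq promoter table (build GRCr8) and because Slco3a1 was low with the 2 compounds, 1-naphthol and 1,5-naphthalenediol, that gave the highest levels of Cyp1a1 and Aldh3a1, targets of the aryl hydrocarbon receptor. The 250 bases before its annotated start lie on the minus strand at chr1:137797837-137798086.

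Slco3a1 promoter: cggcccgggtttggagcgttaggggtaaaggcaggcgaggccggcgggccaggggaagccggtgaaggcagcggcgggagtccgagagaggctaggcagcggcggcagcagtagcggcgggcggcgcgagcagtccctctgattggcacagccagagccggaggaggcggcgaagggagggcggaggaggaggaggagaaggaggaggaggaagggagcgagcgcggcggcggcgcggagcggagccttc

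G and C made up 73.2% of it, against a median of 51.2% over 33469 RefSeq rat promoters of the same length. On either strand it held no match to GCGTG, the core of the aryl hydrocarbon receptor element, a motif that 25.9% of those promoters had. It likewise held no match to TGACNNNGC, the antioxidant response element, which 10.1% had. No letters are capitalised because no match was found in this window.

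Intensities below are processed spot signals in the scanner's arbitrary units. Levels are log2 intensity minus the 75th percentile of that array's gene spots, a point that lay between 1690 and 2024 intensity units, so a negative level is a signal below that point. A spot counts as well above background where the extraction software marked it so. Between 57.4% and 61.0% of gene spots were marked on an array, no gene spot was saturated, and arrays of the same group correlated at 0.996 or more. All 10 hepatocyte markers were well above background on all 15 arrays, and their summed level stayed between 8.68 and 8.81 in log2. Of 9 endothelial markers on the array, Vwf and Cdh5 were well above background on all 15 arrays, and Pecam1, Lyve1, Tek, Tie1 and Ramp2 on none. Of 10 macrophage markers, Cd68 and C1qb were well above it on all 15, and the other 8 on none. Of 6 lymphocyte markers, Nkg7 was well above it on 14 arrays, and Cd3e, Cd3g, Ptprc and Cd79b on none. With whole cultures measured, fewer cells of a type and less RNA per cell cannot be told apart.

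Slc43a3, the purine nucleobase carrier, was brightest with 1-naphthol. Its intensity was 213, 204 and 203 in the 1-naphthol cultures and 69.6, 57.5 and 45.0 with naphthalene. In DMSO it was 77.4, 61.3 and 56.4. The diols stayed close to the vehicle, at 83.2, 74.9 and 76.8 with 2,7-naphthalenediol and 76.2, 82.8 and 68.6 with 1,5-naphthalenediol. All 3 1-naphthol arrays lay above the other 12 arrays, as they did for 1.20% of genes tested. Those arrays helped choose the gene, so nothing is read from this gap. As levels, the 12 others overlapped across all 4 groups, though in intensity 2,7-naphthalenediol lay above naphthalene. The spot was well above background on all 15 arrays, and the software's error of a spot was 10.09% to 11.96% of its signal.

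On the log2 scale the Slc43a3 level was -3.23 ± 0.08 (SD, n = 3) with 1-naphthol. It was -4.61 ± 0.07 with 2,7-naphthalenediol, -4.67 ± 0.19 with 1,5-naphthalenediol, -4.86 ± 0.23 in DMSO and -4.96 ± 0.30 with naphthalene. From 2,7-naphthalenediol down to naphthalene, no neighbours in that order were further apart than their spread. Slc43a3 was 3.31-fold higher with 1-naphthol than with naphthalene, a log2 difference of 1.73 ± 0.15 (SE), the 5th highest of all genes tested. The same comparison called 1.14% of genes higher, a figure from which nothing is read here, since this contrast chose the gene. Against DMSO the difference was 1.63 (3.10-fold), and against 1,5-naphthalenediol 1.44.

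No test called Slc43a3 with either diol. The log2 difference from DMSO was 0.25 ± 0.15 (SE) with 2,7-naphthalenediol (95% interval -0.07 to 0.57, limma adjusted p = 0.269), where 5.84% of genes were called higher. For 1,5-naphthalenediol it was 0.19 ± 0.15 (-0.13 to 0.51, limma adjusted p = 0.396), where 9.25% were called higher. The diols differed from each other by -0.06 (1,5 minus 2,7, interval -0.38 to 0.26, limma adjusted p = 0.816). These intervals leave room for a change of up to about 0.57 log2 units and are not evidence of an equal level. Within slide 2, where 1 culture of 1,5-naphthalenediol could be set beside the 1-naphthol cultures, Slc43a3 was higher with 1-naphthol by 1.64.

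Tmem117, the multi-pass membrane protein, was near the limit of the array. Its brighter probe, A_44_P653647, read 32.8, 36.8 and 31.3 intensity units with 1-naphthol and 4.19, 5.94 and 8.61 with naphthalene. It read 7.99, 10.5 and 7.20 in DMSO. With 2,7-naphthalenediol it read 12.04, 12.97 and 10.4, and with 1,5-naphthalenediol 15.4, 9.97 and 15.5. The 1-naphthol arrays again lay above the other 12, as for 1.20% of genes tested, and they helped choose this gene too. Only 4 of the 15 spots were well above background: all 3 with 1-naphthol and replicate 3 of 1,5-naphthalenediol. The software's error was 12.1% to 13.9% of the signal with 1-naphthol but 31.7% to 87.0% with naphthalene.

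The raw spots, taken without the software's background model, were also brightest with 1-naphthol. They are the same spots on the arrays used to choose the gene, so this is a description and no second support. Median spot brightness less the local background around the spot was 44, 49 and 45 with 1-naphthol and 14.5, 17 and 18 with naphthalene. In the other 9 arrays it ran from 16 to 27.5, and no array of them reached the 1-naphthol values.

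The measured signals of Tmem117, as levels, were -5.85 ± 0.06 (SD, n = 3) with 1-naphthol, -7.17 ± 0.32 with 1,5-naphthalenediol, -7.34 ± 0.18 with 2,7-naphthalenediol, -7.79 ± 0.24 in DMSO and -8.19 ± 0.54 with naphthalene. Below 1-naphthol, each group in that order overlapped the next. Against DMSO, 2,7-naphthalenediol and naphthalene no fold was measured, because none of their spots was well above background. As a floor, each dim signal was replaced by the lowest signal of any probe marked well above background on that array, where this was higher. Counted so, Tmem117 with 1-naphthol was 3.01-fold above naphthalene, 3.77-fold above DMSO and 2.77-fold above 2,7-naphthalenediol. These folds are not strict lower bounds. This probe itself read 15.4 on 1,5-naphthalenediol replicate 1 without being marked, so its own limit can lie above that floor. The fitted log2 difference of the signals from naphthalene was 2.34 ± 0.24 (SE), which rests on dim naphthalene spots and is no measured fold. Against 1,5-naphthalenediol, where 1 of 3 spots was well above background, it was 1.32. Under normexp background correction with an offset of 50 units, more than the whole intensity range of this probe, the difference from naphthalene was 0.37 for Tmem117 and 0.99 for Slc43a3.

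The other Tmem117 probe, A_44_P621708, did not show the pattern. It carries the same transcript accession but was not well above background on any of the 15 arrays, with intensities of 2.73 to 6.94. With 1-naphthol it read 3.43, 2.73 and 6.94, which include both the lowest and the highest of its 15 values. A dim probe of this kind gives no level, so the Tmem117 result rests on 1 spot per array of 1 probe.

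For the diols, Tmem117 gives no measured change, because the probe passed the filter through the 1-naphthol arrays and was not well above background in DMSO. The fit compared dim signals: the log2 difference from DMSO was 0.45 ± 0.24 (SE) with 2,7-naphthalenediol (95% interval -0.06 to 0.96, limma adjusted p = 0.225). With 1,5-naphthalenediol it was 0.62 ± 0.24 (0.10 to 1.13, limma adjusted p = 0.0818). Without 1,5-naphthalenediol replicate 2, the dimmest of that group, it was 0.80 (limma adjusted p = 0.0475). Leaving out the dimmest array of the higher group raises the difference by construction, so nothing is read from that call. The diols differed from each other by 0.17 (-0.35 to 0.68, limma adjusted p = 0.690).

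**Figure D1:**
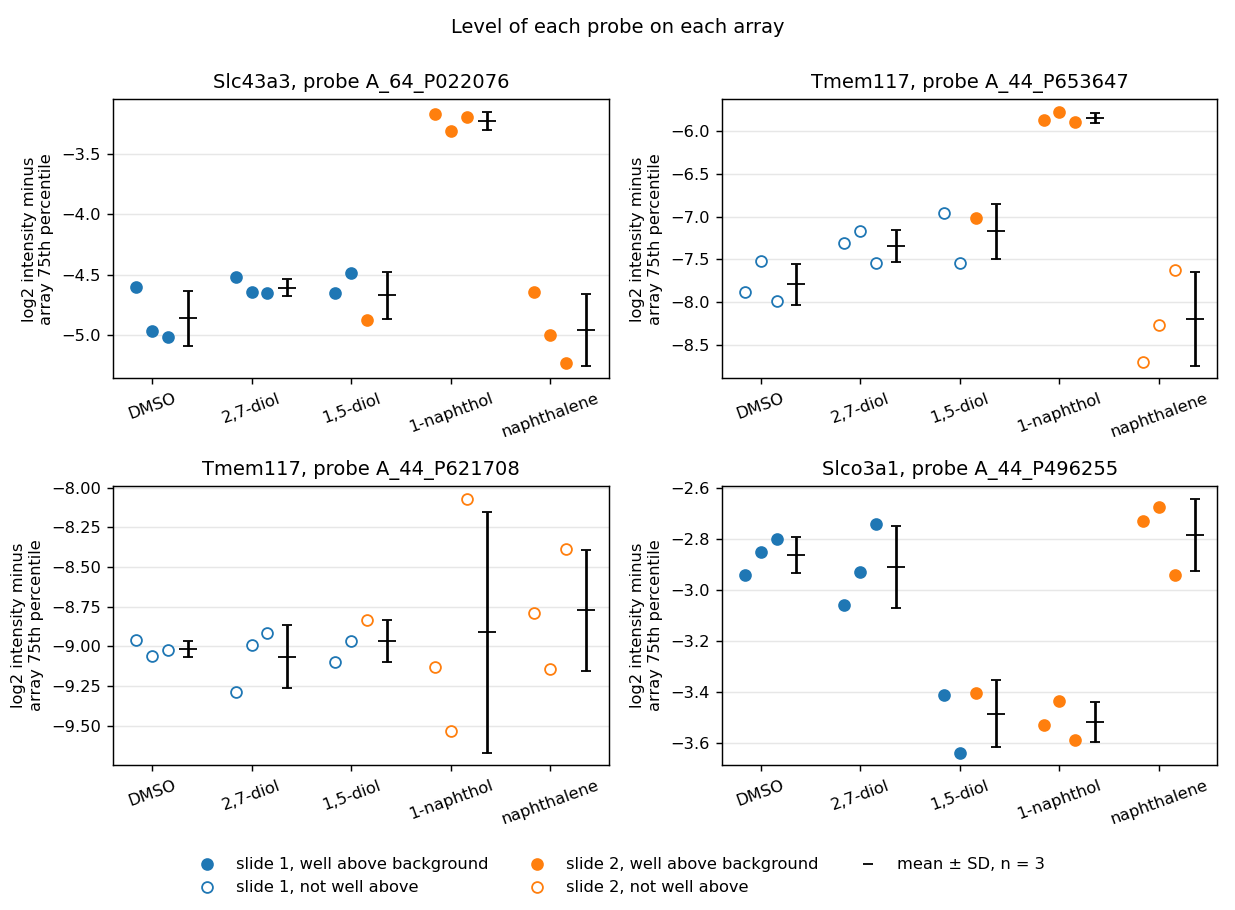
Level of each of the 4 probes on each of the 15 arrays (y axis, log2 intensity minus the array's 75th percentile; x axis, group), coloured by slide, filled where the spot was well above background, with mean ± SD of 3 arrays. Slc43a3 and the first Tmem117 probe are highest with 1-naphthol, at -3.23 and -5.85, the second Tmem117 probe is open on all arrays, and Slco3a1 is low with both 1,5-naphthalenediol and 1-naphthol.

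Slco3a1, the organic anion carrier, went the other way and did not single out 1-naphthol. Its intensity was 166, 188 and 155 with 1-naphthol and 180, 149 and 190 with 1,5-naphthalenediol. It was 262, 287 and 220 with naphthalene and 244, 266 and 261 in DMSO. With 2,7-naphthalenediol it was 229, 246 and 289. The 6 arrays of 1-naphthol and 1,5-naphthalenediol all lay below the other 9, and within each of those sets the groups overlapped. Such a gap was found for 1.31% of genes tested. All 15 spots were well above background, with a software error of 10.1% to 10.3%.

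In levels, Slco3a1 was -2.78 ± 0.14 (SD, n = 3) with naphthalene, -2.86 ± 0.07 in DMSO and -2.91 ± 0.16 with 2,7-naphthalenediol, 3 groups that did not differ beyond their spread. It was -3.49 ± 0.13 with 1,5-naphthalenediol and -3.52 ± 0.08 with 1-naphthol, a difference of -0.03 ± 0.09 (SE) between them. Between 1-naphthol and naphthalene, on the same slide, the log2 difference was -0.73 ± 0.09 (SE), which is 1.66-fold lower with 1-naphthol and the 30th lowest of all genes tested. That comparison called 1.21% of genes lower, from which nothing is read either. Against DMSO it was -0.65 with 1-naphthol (1.57-fold lower).

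Slco3a1 fell with 1,5-naphthalenediol, which played no role in its choice. It was 1.54-fold lower than in DMSO, a log2 difference of -0.62 ± 0.09 (SE; 95% interval -0.83 to -0.42, limma adjusted p = 0.000808), lower in 3 of 3 cultures than in any DMSO or 2,7-naphthalenediol culture, as were 9.53% of genes. Of all genes tested, 12.7% were called lower in that comparison, so a lower call there was common. It was also 1.49-fold lower with 1,5-naphthalenediol than with 2,7-naphthalenediol (log2 difference -0.58 ± 0.09, interval -0.78 to -0.37, limma adjusted p = 0.00214), where 7.44% of genes were called lower. With 2,7-naphthalenediol itself the difference from DMSO was -0.05 ± 0.09 (-0.25 to 0.16, limma adjusted p = 0.779), where 5.50% were called lower.

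The fall stood within a slide. With the 8 arrays of slide 1 alone, Slco3a1 was lower with 1,5-naphthalenediol than in DMSO by a log2 difference of -0.66 (limma adjusted p = 0.0103) and than with 2,7-naphthalenediol by -0.62 (limma adjusted p = 0.0223). The 2 diols, given at the same dose for the same time and differing in the positions of their hydroxyl groups, thus differed for Slco3a1 by a test. For Slc43a3 no difference between them was called, within the interval given above, and Tmem117 was too dim to compare. These were 9 tests, 3 genes in 3 comparisons, with p-values adjusted over all genes in each.

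**Figure D2:**
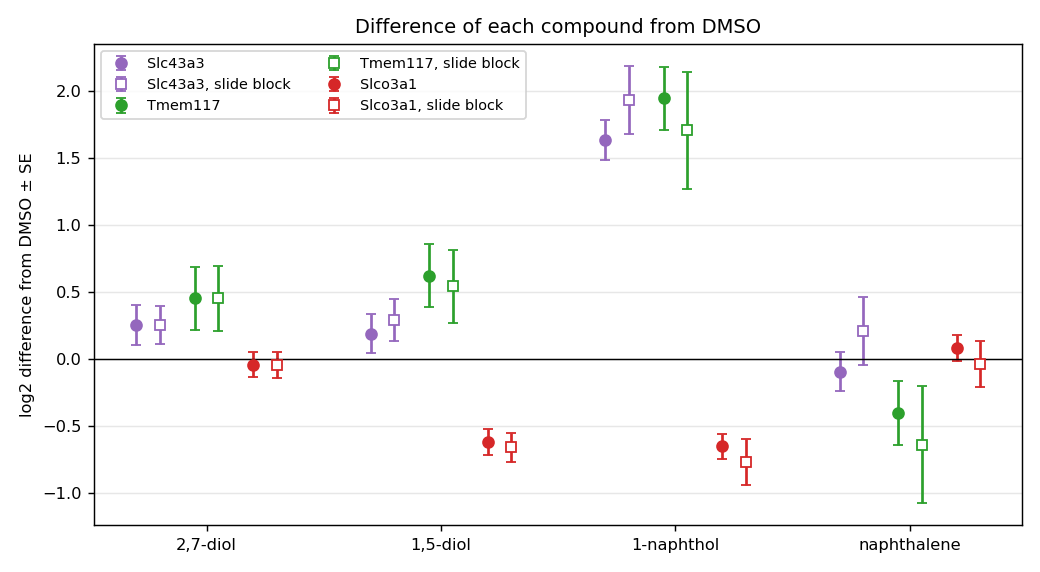
Difference of each compound from DMSO (y axis, log2 ± SE) for the 3 genes, filled circles from the fit without slide and open squares with slide as a block. Slc43a3 and Tmem117 stand at 1.63 and 1.94 with 1-naphthol, the Tmem117 value against dim DMSO spots, while Slco3a1 is at -0.62 with 1,5-naphthalenediol and -0.65 with 1-naphthol.

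Values that cross slides moved with the slide term. With slide as a block, the 1-naphthol difference from DMSO was 1.93 ± 0.25 (SE) for Slc43a3, 1.70 ± 0.44 for Tmem117 and -0.77 ± 0.17 for Slco3a1. Naphthalene against DMSO was -0.10 ± 0.15 (SE) for Slc43a3 without the block and 0.20 ± 0.25 with it. It was -0.40 ± 0.24 and -0.64 ± 0.44 for Tmem117, and 0.08 ± 0.09 and -0.04 ± 0.17 for Slco3a1. The sign changed for Slc43a3 and Slco3a1, but each of these values was smaller than its SE, so no direction is read. The slide term rests on 1,5-naphthalenediol replicate 3 against replicates 1 and 2, and the SE of these differences was larger with it. Over all genes, 20.2% were called in 1-naphthol against DMSO and 24.9% in naphthalene against DMSO, or 4001 and 4918 genes. The fit with the block called 230 and 135.

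Slc43a3 and Tmem117 were each other's nearest match in pattern. Likeness was the root mean square (RMS) difference between the 5 group means of 2 genes, each centred on its own mean, over 10488 other genes with a symbol. It was 0.26 between these 2 genes, against 0.63 and 0.79 between each of them and a flat line. Both were in part chosen for the same contrast, so this closeness is a description, and 3 of the 5 Tmem117 means come from spots that were all dim. Next to Slc43a3 came Gpr135, an orphan G protein-coupled receptor, at 0.38, and Lct, lactase, at 0.38. Next to Tmem117 came Gpr135 at 0.45 and Eng, endoglin, a co-receptor for TGF-beta ligands, at 0.53.

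Against DMSO with 1-naphthol, Lct differed by 0.88 and Eng by 0.77 in log2, beside 1.63 for Slc43a3. Against dim DMSO spots, counted with the floor given above for Tmem117, Gpr135 was 1.54-fold and Tmem117 3.77-fold higher. Gpr135 was well above background on 3 of 15 arrays and Lct on 13. A level on all 3 1-naphthol arrays above all 12 others was found for 238 genes, 1.20% of those tested.

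Slco3a1 had closer matches. Rab15, a small GTPase of endosomal traffic, differed from it by 0.08 and LOC102553770 by 0.09, where Slco3a1 differed from a flat line by 0.32. With 1,5-naphthalenediol against DMSO, Rab15 was at -0.69 and LOC102553770 at -0.64. With 1-naphthol they were at -0.65 and -0.48. Both were well above background on all 15 arrays.

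**Figure D3:**
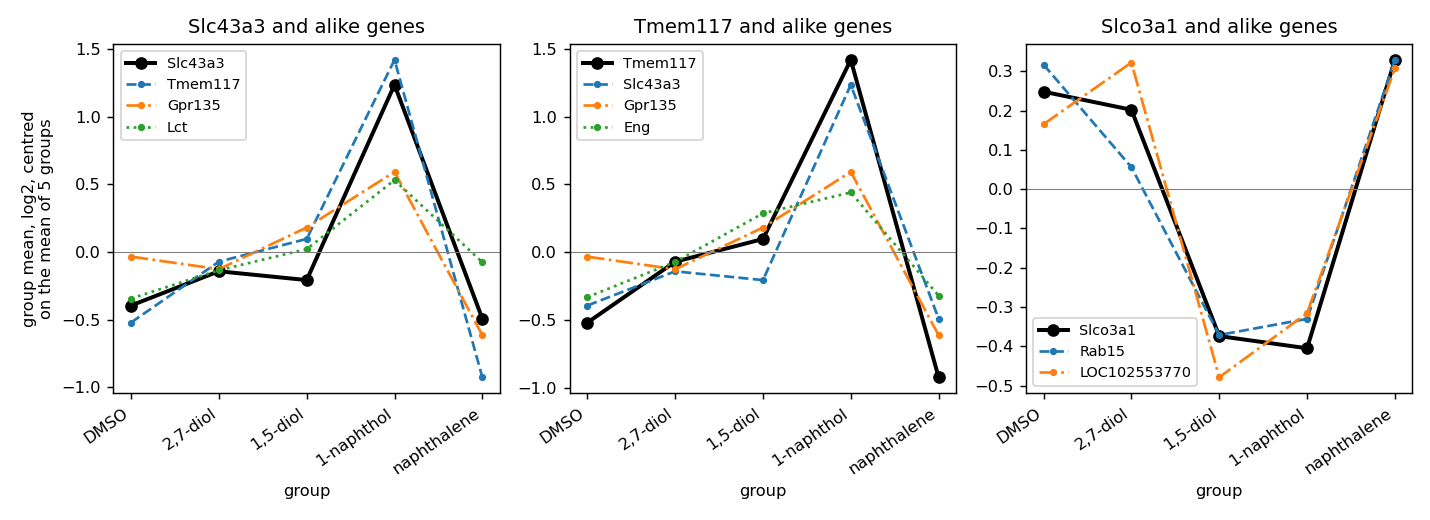
Group means (y axis, log2, each gene centred on the mean of its 5 group means) across the 5 groups (x axis) for each gene and genes alike to it, 3 for Slc43a3 and Tmem117 and 2 for Slco3a1. Slc43a3 and Tmem117 share a peak at 1-naphthol that Gpr135, Lct and Eng reach only in part, and Slco3a1 with Rab15 and LOC102553770 is low with both 1,5-naphthalenediol and 1-naphthol.

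The nearest tested genes on either side of them on the chromosome were not called in 1-naphthol against naphthalene. By RefSeq order on GRCr8, those of Slc43a3 on chromosome 3, each with 1 gene between, were Rtn4rl2, a Nogo receptor relative, with a log2 difference of 0.07 (limma adjusted p = 0.736), and Prg2, eosinophil major basic protein, with 0.33 (limma adjusted p = 0.424). Those of Tmem117 on chromosome 7 were Twf1, the actin-binding twinfilin, with 1 gene between, at 0.02 (limma adjusted p = 0.853) and Arid2, a chromatin remodelling subunit with 19 between, at -0.18 (limma adjusted p = 0.231). Those of Slco3a1 on chromosome 1 were Chd2, a chromatin remodeller with 15 genes between, at 0.09 (limma adjusted p = 0.763) and Akap13, a scaffold protein for protein kinase A with 3 between, at -0.09 (limma adjusted p = 0.314). With 1,5-naphthalenediol against DMSO, Akap13 fell, with a log2 difference of -0.29 ± 0.04 (SE, limma adjusted p = 0.000544), and Chd2 was at 0.11 (limma adjusted p = 0.566).

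No carrier related to Slc43a3 was called between 1-naphthol and naphthalene. Of 6 tested carriers of amino acids, nucleobases and nucleosides, out of 10 listed, 0 were called by limma, where 2.35% of all genes were. At an unadjusted p under 0.05 there were 2, and the median log2 difference was 0.09 beside 0.01 over all genes. In the same family, Slc43a1, an amino acid carrier, was at 0.09 (limma adjusted p = 0.717). Slc43a2, another amino acid carrier, was at -0.27 (limma adjusted p = 0.0621; 0.0435 with slide as a block). Against DMSO, 1-naphthol raised Slc28a2, a concentrative purine nucleoside carrier, by 0.35 (limma adjusted p = 0.00771) and Slc29a2, an equilibrative one, by 0.32 (limma adjusted p = 0.0483). These were 2 of 6, where 20.2% of all genes were called, and no carrier of the list was called with the slide block. Naphthalene against DMSO also had 2 higher, where 24.9% were called, and none with the block. They were Slc28a2, by 0.25 (limma adjusted p = 0.0251), and Slc43a2, by 0.35 (limma adjusted p = 0.00528). Between 1-naphthol and naphthalene, Slc28a2 was at 0.10 (limma adjusted p = 0.535) and Slc29a2 at 0.27 (limma adjusted p = 0.200). 1,5-naphthalenediol raised Slc29a2 by 0.42 (limma adjusted p = 0.0131), the 1 call among these 6 where 22.0% of genes were called. Slc28a2 and Slc29a2 were named after their values were seen.

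Enzymes of purine salvage, synthesis and breakdown gave few calls between 1-naphthol and naphthalene, in both directions. Only some of them act on nucleobases, which SLC43A3 carries. Of 20 tested of 24 listed, 1 was higher and 1 lower between 1-naphthol and naphthalene, with a median of 0.05 beside 0.01 over all genes, of which 2.35% were called. Xdh, xanthine dehydrogenase, which forms uric acid, was higher by 0.41 ± 0.06 (SE, limma adjusted p = 0.00601). Ampd3, an AMP deaminase, was lower, with -0.30 ± 0.07 (limma adjusted p = 0.0454). With 1,5-naphthalenediol against DMSO, 6 rose and 4 fell, where 22.0% of all genes were called. Xdh rose by 0.55 (limma adjusted p = 8.37e-05), while Slc43a3 was not called. With 2,7-naphthalenediol 2 rose and 1 fell, where 11.3% of genes were called.

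Among the OATP relatives of Slco3a1, 7 of 15 listed were tested and none was called between 1-naphthol and naphthalene, or with 1-naphthol, 2,7-naphthalenediol or naphthalene against DMSO by limma. At an unadjusted p under 0.05 there were 2, 1, 1 and 0 in that order. The shares of all genes called were 2.35%, 20.2%, 11.3% and 24.9%. With slide as a block, Slco2a1 was called higher with 2,7-naphthalenediol (limma adjusted p = 0.0363). The hepatocyte uptake carrier Slco1b2 was at 0.04 between 1-naphthol and naphthalene (limma adjusted p = 0.914), Slco2b1 at 0.06 (limma adjusted p = 0.878) and the prostaglandin carrier Slco2a1 at -0.04 (limma adjusted p = 0.853). Slco4a1 was too dim to be tested. With 1,5-naphthalenediol against DMSO, 1 relative rose and 1 fell, where 9.25% and 12.7% of all genes did, with a list median of 0.14 beside -0.02 over all genes. With the slide block 2 rose and 1 fell. Slco2a1 rose by 0.24 ± 0.07 (SE, limma adjusted p = 0.0288). Slco5a1, named here after its value was seen, fell, with -0.69 ± 0.15 (limma adjusted p = 0.00618), close in size to Slco3a1. With 1-naphthol against DMSO it was at -0.31 (limma adjusted p = 0.153), beside -0.65 for Slco3a1.

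**Figure D4:**
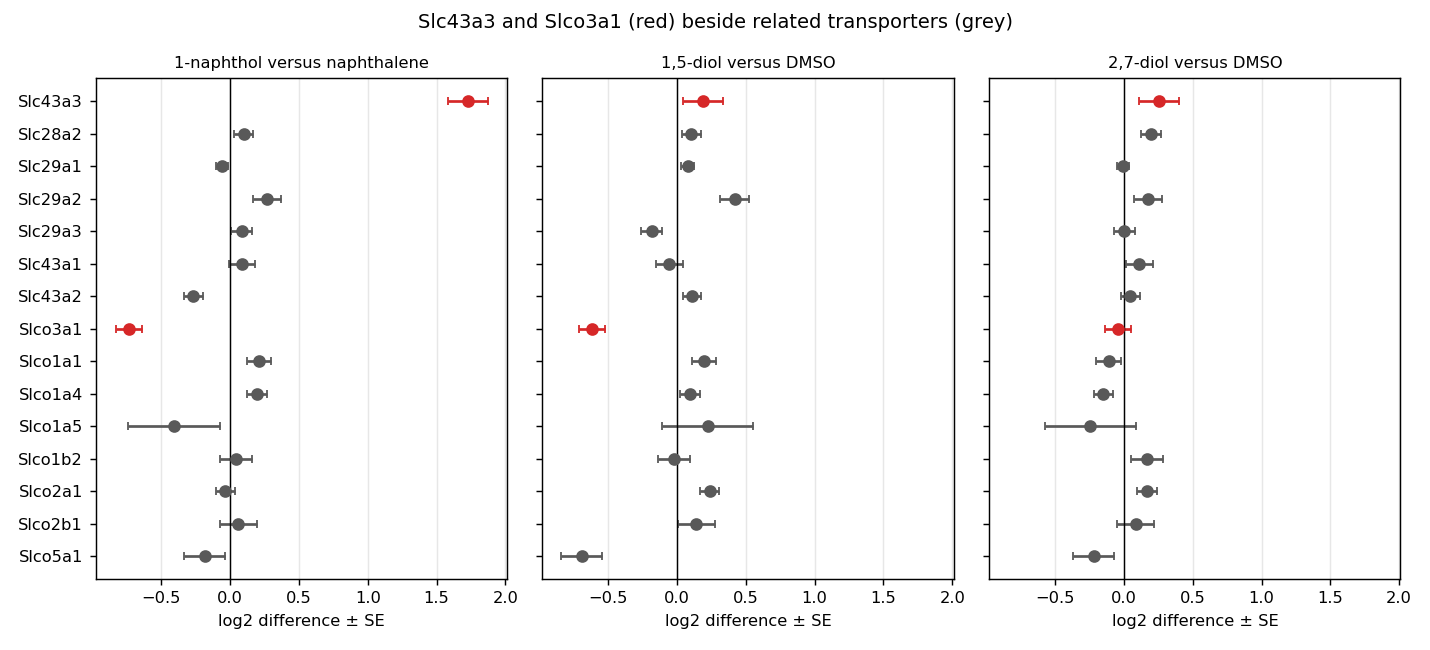
Log2 difference ± SE (x axis) of Slc43a3, Slco3a1 (red) and the tested carriers related to them (grey, y axis) in 3 comparisons. Between 1-naphthol and naphthalene Slc43a3 is at 1.73 and Slco3a1 at -0.73 while none of the grey carriers was called, and with 1,5-naphthalenediol Slco3a1 and Slco5a1 are at -0.62 and -0.69.

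Other hepatocyte carriers of organic ions and amino acids gave no call between 1-naphthol and naphthalene, among 13 tested of 19 listed, by limma, and 2 at an unadjusted p under 0.05. The share of all genes called there was 2.35%. Of genes that handle prostaglandins, substrates of SLCO3A1, 1 of 10 tested was called. This was Ptgr1, a prostaglandin and leukotriene reductase, higher by 0.54 ± 0.05 (SE, limma adjusted p = 0.000123) between 1-naphthol and naphthalene and by 0.80 with 1,5-naphthalenediol against DMSO (limma adjusted p = 7.24e-07). Of 10 tested thyroid hormone genes, 1 was called. Dio1, the deiodinase that converts thyroxine to its active form, was higher by 0.27 ± 0.05 (limma adjusted p = 0.0215).

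The unfolded protein response, listed because of TMEM117, had 3 of 14 genes higher and none lower between 1-naphthol and naphthalene, with a median of 0.13, where 1.14% and 1.21% of all genes were. Herpud1, a part of the machinery that degrades misfolded proteins, was higher by 0.38 ± 0.05 (SE, limma adjusted p = 0.00509) and Hspa5, the chaperone BiP, by 0.27 ± 0.04 (limma adjusted p = 0.00799). The third was Dnajb9, a co-chaperone, at 0.27 (limma adjusted p = 0.00362). Of the PERK branch, named after the values were seen, Ddit3, Atf3, Trib3, Chac1, Ppp1r15a and Sesn2 were not called there. Atf4 was at 0.16 (limma adjusted p = 0.0558; 0.0417 with slide as a block). The same list had 4 genes higher and none lower with 2,7-naphthalenediol against DMSO, where 5.84% and 5.50% of all genes were. Against DMSO, 1-naphthol raised 3 and lowered 1, where 20.2% of all genes were called, and with slide as a block 1 was higher and none lower. Naphthalene against DMSO had 1 higher and 4 lower, where 24.9% were called, and none with the block. For 1,5-naphthalenediol 2 were higher and 2 lower, where 22.0% were called. Hspa5 was at 0.09 with 1-naphthol against DMSO (limma adjusted p = 0.183). With naphthalene it was at -0.19 (limma adjusted p = 0.0115; 0.434 with the block).

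Targets of the aryl hydrocarbon receptor, a receptor for planar aromatic compounds, included Cyp1a1 and Aldh3a1, which were highest with both 1-naphthol and 1,5-naphthalenediol, the compounds with which Slco3a1 was low. Of 7 tested of 9 listed, 5 rose and none fell with 1-naphthol against DMSO, 4 rose and 2 fell with 1,5-naphthalenediol, and 4 rose with 2,7-naphthalenediol. The shares of all genes called were 20.2%, 22.0% and 11.3%. With slide as a block, 3 were higher with 1-naphthol. Between 1-naphthol and naphthalene 3 were higher, where 1.14% of all genes were. Cyp1a1, a cytochrome P450, was higher by 2.18 (limma adjusted p = 1.77e-06) and Aldh3a1, an aldehyde dehydrogenase, 18.1-fold (limma adjusted p = 4.69e-10). Aldh3a1 was not well above background on any naphthalene or DMSO array. Its folds, here and below, are therefore counted with the floor used for Tmem117 and are not strict bounds. The adjusted p-values beside them come from the fit of the signals without that floor, dim ones included. Aldh3a1 passed the filter only through groups where it was high. With 1,5-naphthalenediol against DMSO, where Slc43a3 was at 0.19, Cyp1a1 rose by 2.22 and Aldh3a1 11.97-fold (limma adjusted p = 3.97e-07 and 8.05e-10). With 2,7-naphthalenediol, where Slco3a1 was at -0.05, they rose by 0.60 and 4.24-fold (limma adjusted p = 0.0120 and 2.89e-06). None of the 7 was called with naphthalene against DMSO by limma, nor did any reach an unadjusted p under 0.05. The other targets, named after their values were seen, did not all follow Cyp1a1 and Aldh3a1. Nqo1 and Ahrr also rose with 1,5-naphthalenediol against DMSO. Ahrr, however, was well above background only with 1-naphthol and 1,5-naphthalenediol, and passed the filter through those groups, where it was high. It counts among the targets called higher with each of these 2 compounds, against dim DMSO spots. With 1,5-naphthalenediol against DMSO, Cyp1a2 was at 0.06 (limma adjusted p = 0.577). Cyp2s1 was lower there, at -0.21 (limma adjusted p = 0.0106), as was Ugt1a6, at -0.13 (limma adjusted p = 0.0339). A part of the receptor in the levels of the 3 genes was not tested.

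Markers of other cell types differed little between the 1-naphthol and naphthalene cultures, apart from bile duct markers. The summed bile duct level over 7 markers was -1.03 to -0.79 with 1-naphthol and -0.60 to -0.54 with naphthalene, with 1 tested marker called lower, while Krt19, Spp1 and Cftr were not well above background on any array. It was -0.64 to -0.54 in DMSO, -1.005 to -0.915 with 2,7-naphthalenediol and -0.88 to -0.83 with 1,5-naphthalenediol. The part of these cells in the levels of the 3 genes was not tested. The summed endothelial level over 9 markers was 1.07 to 1.15 with 1-naphthol and 1.09 to 1.14 with naphthalene, and no endothelial, macrophage, stellate or lymphocyte marker was called between these groups by limma. At an unadjusted p under 0.05 there were 1 of 2 tested endothelial, 2 of 4 stellate and none of the tested macrophage or lymphocyte markers.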

How the data were processed

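Deposited per-array files of Agilent Feature Extraction 10.7.1.1 were used, 1 per culture. Per the file headers, each intensity is a processed Cy3 spot signal, background-subtracted and detrended by the authors' software and not normalized between arrays. The headers name rat build rn4, for which no probe positions are given here. Outlier-marked spots were left out, log2 intensities were centred on each array's 75th percentile over gene spots, and spots of a probe were averaged. Probes were kept (23542 of 45598) that some group showed well above background in every one of its 3 arrays, in 50% or more of their spots, and the brightest kept probe stood for a gene. Names came from unversioned accessions matched to RefSeq (GRCr8): 21229 probes had a symbol, and the 3 members were found through accessions. Group means were fitted over all 15 arrays with lmFit and eBayes (limma 3.58.1, R 4.3.3), with Benjamini-Hochberg adjustment over all genes and a threshold of 0.05. The fit was tested on simulated data. The members and lists were chosen with earlier results of these data known. Genes named were the members, the 3 most alike to each, their neighbours, set relatives, and the 2 called genes of each list with the largest rise and fall between 1-naphthol and naphthalene. 1 gene alike to Slco3a1 is not reported here. Alternatives were slide or replicate as a block, quantile scaling, normexp, other filters, outlier spots kept, the mean of probes, only the 2 groups' arrays, slides alone and each array left out. The files used lack mean signals, so normexp was run on median signals. The number of arrays limits the precision of every value.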

Additional observations from a re-analysis of the deposited data

How the results depend on the processing

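Both lower calls of Slco3a1 with 1,5-naphthalenediol held under all 16 alternatives: the log2 difference ran from -0.66 to -0.48 against DMSO (limma adjusted p 8.77e-05 to 0.0121) and from -0.65 to -0.43 against 2,7-naphthalenediol (0.000425 to 0.0383). The other tested differences of the 3 genes stayed uncalled, except Tmem117 with 1,5-naphthalenediol against DMSO, which ran from 0.51 to 0.80 when arrays were left out in turn, was called only without 1,5-naphthalenediol replicate 2, and was 0.051 with normexp (limma adjusted p = 0.583). Its 2,7-naphthalenediol difference was 0.45, and -0.0087 with normexp. With normexp, 1-naphthol minus naphthalene was 0.99 for Slc43a3, 0.37 for Tmem117 and -0.57 for Slco3a1, and naphthalene minus 2,7-naphthalenediol for Tmem117 turned from -0.85 to 0.041, as naphthalene minus DMSO did from -0.40 to 0.03. The offset of 50 units lies above all processed Tmem117 signals, so it shrinks them by construction. Requiring a probe to be well above background on all arrays left no Tmem117 value, and slide 2 alone gave none against DMSO or 2,7-naphthalenediol. Replicate numbers did not pair the arrays: 2 of 30 same-numbered pairs had correlated deviations above 0.1, and the best match of an array shared its number in 5 of 15 cases. With the replicate block, Slco3a1 stood at -0.62 against DMSO with 1,5-naphthalenediol (limma adjusted p = 0.00267), and the block changed no call of the 3 genes. The numbers of genes called against DMSO were 2244 for 2,7-naphthalenediol, 4345 for 1,5-naphthalenediol, 4001 for 1-naphthol and 4918 for naphthalene, with 2824 between the diols and 465 between 1-naphthol and naphthalene. Without a filter, over 38995 genes, they were 477, 2379, 1855, 2153, 1323 and 139 in that order. With only the arrays of the 2 groups, they were 963, 2357, 4592, 2688, 1131 and 51. With the slide block, 230 genes were called for 1-naphthol and 135 for naphthalene against DMSO. Signal over background limits Tmem117.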
